A study of Drosophila melanogaster with 11 samples.

Results

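The comparison described here is between male larvae of the act-Gal4 control and male larvae of the P control, chosen by array title, and it used 4 of the 11 arrays of the study. The act-Gal4 control males had the genotype y w with act-Gal4 on one homolog of the third chromosome (+/act-Gal4), and the P control males had the same background with P in its place (+/P), with 2 arrays each. Both were larvae of Drosophila melanogaster in the third instar, homogenized whole, and neither group carried both transgenes. The study, on the sex-specific role of the chromatin protein HP1, also measured females of both controls and larvae of both sexes with P and act-Gal4 together. The labels do not spell out P. It corresponds to the line that the design text calls HP1-21, which is assumed here, as no source used states it, to hold a Gal4-dependent interference construct aimed at HP1.

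act-Gal4 makes the yeast transcription activator Gal4 from an actin promoter in most cells, and an RNA interference construct behind Gal4 binding sites is silent without it. Larvae with only one of these serve as controls for larvae with both. They are progeny of different parent lines, so that a difference between them can come with the transgene, its insertion site, the rest of the line's genome, or the growth and staging of the cultures. These cannot be told apart here, because each genotype stands for 1 line. The third instar is the last feeding stage, in which gut, fat body, muscle, cuticle, salivary glands, imaginal discs and, in males, the early testis all contribute RNA to a whole-animal sample.

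RNA was measured on Affymetrix Drosophila 2.0 arrays, and the deposited intensities were put on the log2 scale. All levels below are log2 intensities of a probeset, and all changes are act-Gal4 control minus P control on that scale. Median intensity was 15.4 and 15.6 on the act-Gal4 control arrays and 15.5 and 15.3 on the P control arrays; for arrays, it is their number that limits the precision. Replicates differed by a median of 0.0925 in act-Gal4 control males and 0.109 in P control males. The design text speaks of 2 independent populations of larvae, but no label ties an array to one of them, so p-values measure only the spread between these samples. Levels of Y-linked probesets on the 5 female arrays, where they can only be background, reached 3.27, and 38.1% of tested probesets in act-Gal4 control males and 37.6% in P control males had a mean at or under that level.

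The labels of the 4 arrays were set beside the values. Of 183 Affymetrix control probesets, the one with the largest difference was AFFX-Dm-K01486-1_at, to which the tables used here assign no gene. As it was picked by that difference, its gap between these 4 arrays is no check of their labels. Its level was 8.95 and 8.93 in act-Gal4 control males, against 2.91 and 3.05 in P control males. It lay between 8.79 and 10.05 on all 7 arrays labelled with act-Gal4. On the 4 arrays labelled P control it lay between 2.91 and 3.53. The arrays outside this comparison, which had no part in the choice, thus followed their titles and genotypes. The strain label goes against them: it reads HP1-21/act-Gal4 for 3 of the 4 arrays and was not used. Each of 6 male germ line markers was higher on the 4 arrays than on any female array, by at least 0.88.

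A measure of RNA integrity and labelling moved with the groups. The difference between the 3′ and 5′ control probesets of eIF-4a was 4.32 in act-Gal4 control males and 4.97 in P control males, and that of GAPDH was 3.32 and 4.59 in the same groups. For actin the values were 4.09 in act-Gal4 control males and 4.04 in P control males. The part of this difference in the results below was not tested.

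**Figure D1:**
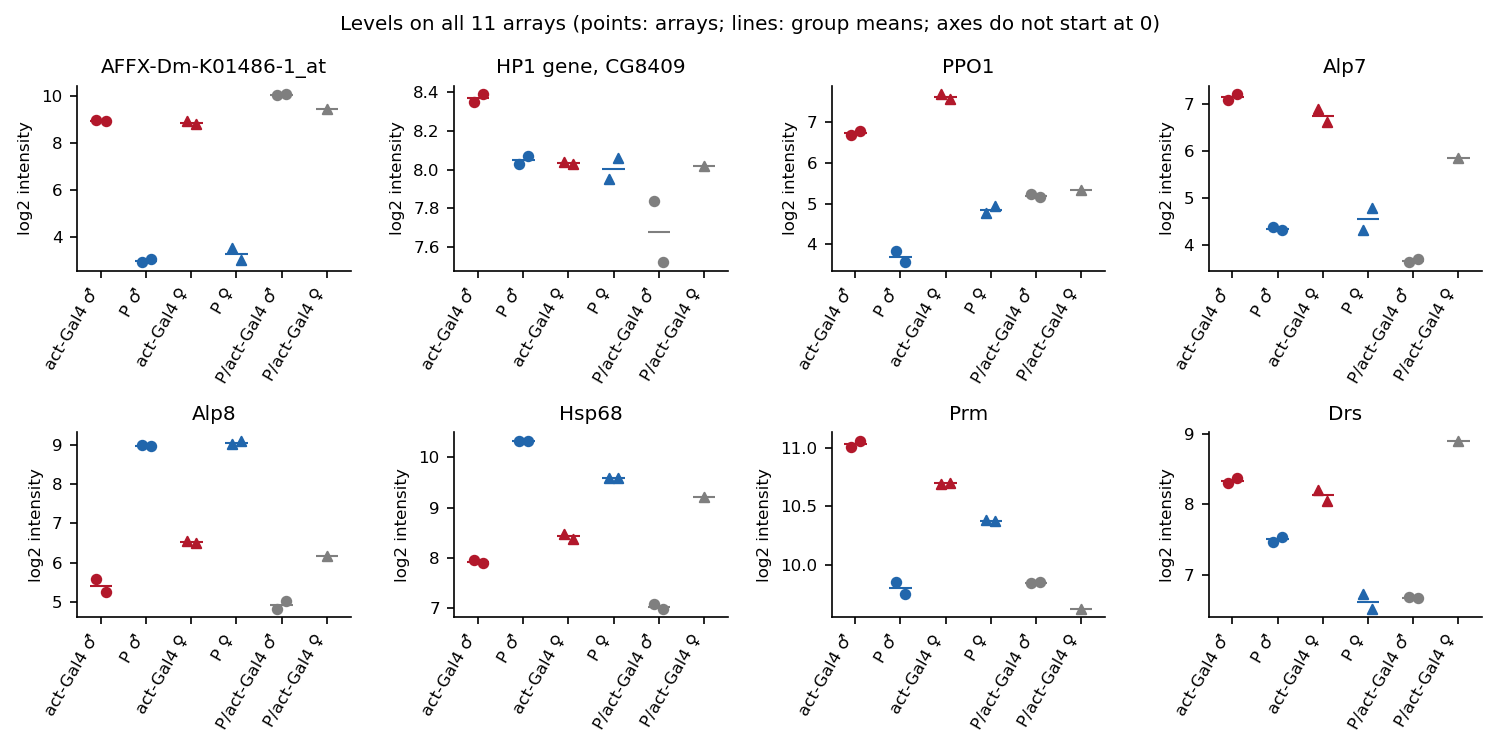
Log2 intensity on each of the 11 arrays (y axis; points are arrays, lines are group means, and axes do not start at 0) for a control probeset and 7 genes, by genotype and sex (x axis; circles males, triangles females). In act-Gal4 control males Alp8 and Hsp68 are below P control males, and PPO1, Alp7, Prm and Drs are above; the HP1 gene is between 8.03 and 8.39 on these 4 arrays.

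The controls differed broadly, mostly by small amounts. Of 18769 probesets tested, 3455 passed limma's test at an adjusted p under 0.05 (18.4%), 1885 higher in act-Gal4 control males (10%) and 1570 lower (8.36%). With 1 probeset for each of 11982 genes, 1588 genes were called higher (13.3%) and 1180 lower (9.85%), 23.1% in all, and the median change of all genes was 0.0025. The median size of a called gene's change was 0.50 on the log2 scale, or 1.42-fold. A change of at least 2-fold was called for 227 genes (1.89%), 173 higher (1.44%) and 54 lower (0.451%), and 23 genes were called at 4-fold or more. The arrays of the groups did not overlap for 58.1% of all probesets. Where a count moved by over 1.5 times on leaving out 1 array, it is also given without act-Gal4 control replicate 1, act-Gal4 control replicate 2, P control replicate 1 and P control replicate 2, left out one at a time in that order. For the genes called these counts were 1531, 1534, 1960 and 1626. The share of genes called was similar over the chromosome arms, at 21.8% on the X, 22.4% on 2L, 24.6% on 2R, 23.3% on 3L, the arm 3R with 23.4%, and 23.1% on chromosome 4.

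The gene of HP1 itself, CG8409 on 2L, encodes the protein that binds methylated histone H3 in heterochromatin. Its level was 8.35 and 8.39 in act-Gal4 control males, against 8.03 and 8.07 in P control males. The arrays did not overlap, but the difference of 0.32 ± 0.109 (SE) did not pass the test (adjusted p = 0.0674, 95% interval 0.08 to 0.56). The males with both transgenes had 7.84 and 7.52. The call depends on the form of the test, with adjusted p between 0.00494 and 0.245 over the alternatives.

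Among 37 measured genes of heterochromatin proteins, 5 were called higher and 2 lower (13.5% and 5.41%, against 13.3% and 9.85% of all genes), with a median change of 0.13. The histone deacetylase gene HDAC1 was at 6.17 and 6.08 in act-Gal4 control males and 5.51 and 5.51 in P control males, a rise of 0.61 (adjusted p = 0.000947). Caf1-55, a histone-binding subunit shared by several chromatin complexes, rose by 0.44. Leaving out arrays in that order, 2, 2, 3 and 2 were called higher and 0, 1, 2 and 0 lower. Of 28 genes of the piRNA and siRNA pathways, 1 was called higher and 1 lower (3.57% each). Of 10 dosage compensation genes, 1 was called higher and 2 lower (10% and 20%). The lower ones included Sxl, the switch gene of sex determination, at 6.40 and 6.37 in act-Gal4 control males against 7.19 and 7.25 in P control males. Each of these counts moved between 0 and 2 when single arrays were left out: for dosage compensation 0, 0, 1 and 0 were called higher and 1, 1, 2 and 1 lower, and for the small RNA pathways 1, 1, 1 and 2 higher and 0, 0, 0 and 1 lower.

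The largest rises belonged to genes of varied function. CG17105 on 2L stood at 11.43 and 11.47 in act-Gal4 control males, against 7.27 and 7.33 in P control males, a rise of 4.15 ± 0.0904 or 17.8-fold (adjusted p = 3.16e-10). The cytochrome P450 gene Cyp4e3 was at 7.20 and 7.35 in act-Gal4 control males and at 4.11 and 3.87 in P control males, a 9.75-fold rise (adjusted p = 6.72e-09). CG11313 was at 8.95 and 8.98 in act-Gal4 control males and at 5.77 and 5.67 in P control males, 9.52-fold higher. In all 3 both act-Gal4 control arrays lay far above both P control arrays. Further rises of over 4-fold were those of Alp7 (6.94-fold), an alkaline phosphatase gene, lncRNA:CR9284 (5.58-fold), acs (5.53-fold), the lysosomal mannosidase gene LManIII (5.51-fold) and the cysteine cathepsin gene CtsL3 (4.75-fold). They also included the esterase gene alpha-Est2 (4.64-fold), the scavenger receptor gene ninaD (4.55-fold), needed for carotenoid uptake, Gnmt (4.08-fold), whose enzyme methylates glycine with S-adenosylmethionine, and Acbp3 (4.05-fold), an acyl-CoA binding protein gene.

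Some of the largest differences belonged to probesets with no gene in the tables. Probeset 1634353_at was at 12.93 and 12.97 in act-Gal4 control males, against 7.68 and 7.46 in P control males, a difference of 5.38 (41.7-fold, adjusted p = 6.55e-11). Probeset 1630934_at was 25.9-fold and 1635549_at 10.5-fold higher. In the other direction 1634633_s_at was 8.58-fold lower, with 6.70 and 6.94 in act-Gal4 control males and 9.91 and 9.93 in P control males. These probesets are named only because of their size. Of the 4720 probesets without a gene, 381 were called (8.07%, against 18.4% of all probesets tested).

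The deepest falls were led by another alkaline phosphatase gene. Alp8 was at 5.58 and 5.24 in act-Gal4 control males, against 8.99 and 8.97 in P control males, a fall of 3.57 ± 0.119 on the log2 scale (11.9-fold, adjusted p = 6.88e-09). The noncoding RNA lncRNA:alphagamma-element:CR32865, a family known to be transcribed on heat shock, was 7.03-fold lower, with 7.48 and 7.62 in act-Gal4 control males and 10.27 and 10.47 in P control males. Srg2 was at 3.15 and 3.18 in act-Gal4 control males, at background, and at 5.07 and 5.25 in P control males, so that it was at least 3.70-fold lower. Other falls were those of CG9733 (3.60-fold), the Drosomycin-like gene Drsl2 (3.41-fold), CG14120 (3.32-fold), Esp (3.10-fold) and Dh44 (3.04-fold), the gene of a corticotropin-releasing-factor-like diuretic hormone. NT5E-2, a 5′-nucleotidase gene, the methuselah-like receptor gene mthl4 and path, an amino acid transporter gene, each fell by 1.60, CG14205 by 1.60 too, Culd by 1.41, Bbd by 1.29 and the carbonic anhydrase gene CAHbeta by 1.20. The Hippo pathway gene kibra fell by 1.77 in the probeset used, while a second probeset at 5.16 in act-Gal4 control males and 5.45 in P control males differed by −0.29 (adjusted p = 0.0512).

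**Figure D2:**
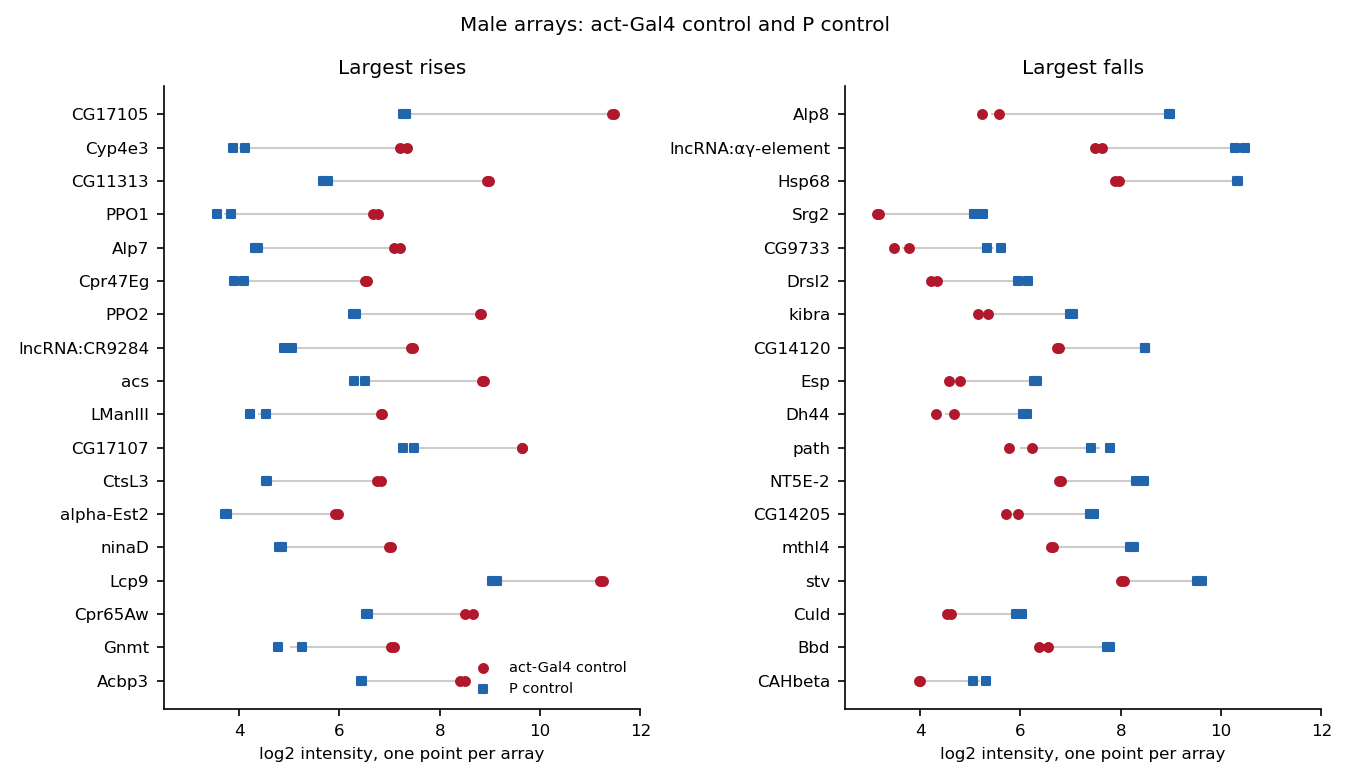
Log2 intensity (x axis) on each of the 4 male arrays for the 18 genes with the largest rises and the 18 with the largest falls by the naming rule (y axis); red circles are act-Gal4 control arrays, blue squares P control arrays, and grey lines join the group means. The rule takes only genes whose groups do not overlap. The widest gaps are those of CG17105 (4.15) and Alp8 (−3.57).

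Alp7 and Alp8 changed in opposite directions although their genes are neighbours. In the RefSeq gene order of arm 2R only Alp2 lies between them. Alp7 was at 7.08 and 7.20 in act-Gal4 control males and 4.38 and 4.31 in P control males, a rise of 2.80. Alp2 was at 2.84 and 2.76 in act-Gal4 control males and at 2.93 and 3.06 in P control males, background in both, and Alp8 fell as given above. In males with both transgenes Alp7 was at 3.63 and 3.70 and Alp8 at 4.82 and 5.02. Thus Alp8 was low on all the male arrays with act-Gal4, and Alp7 was high only in those without P.

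Other strongly changed genes lay side by side in the same order. Of 226 genes called at 2-fold or more and placed on an arm, 22 (9.73%) had a measured neighbour that was also called at 2-fold, in 12 pairs. In 10 pairs both members changed in the same direction. Of all 11888 placed genes, 3.73% had such a neighbour; neighbours often belong to 1 gene family, and their probes can share sequence, which was not tested. One run on 2L held CG17105 (4.15), CG17107 (2.26), CG7299 (1.25) and CG7296 (1.93). On 3L the acyl-CoA binding protein genes Acbp3 (2.02) and Acbp2 (1.70) formed a pair. These pairs were singled out after their values were seen.

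The stress-inducible heat shock genes were lower in act-Gal4 control males, all 5 of those with a probeset of their own. These genes encode chaperones that are made when proteins unfold, and their transcripts rise quickly in heat. Hsp68, an Hsp70-type chaperone gene, was at 7.96 and 7.89 in act-Gal4 control males, against 10.33 and 10.32 in P control males, a fall of 2.40 ± 0.0873 (5.28-fold, adjusted p = 1.51e-08). The co-chaperone gene stv fell 2.92-fold, with 8.06 and 8.0 in act-Gal4 control males and 9.53 and 9.62 in P control males. DnaJ-1, an Hsp40 co-chaperone gene, was at 9.02 and 9.10 in act-Gal4 control males and 10.14 and 10.21 in P control males, 2.17-fold lower. The small heat shock genes Hsp26 and Hsp27 fell 1.80-fold and 1.53-fold. The median over the 5 genes was −1.12, and all 5 remained called when any of the 4 arrays was left out.

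The Hsp70 genes proper have no probeset of their own, because their copies are nearly identical. Probeset 1632841_x_at, assigned to 2 genes of the Hsp70 family, was at 5.36 and 5.10 in act-Gal4 control males, against 8.67 and 8.70 in P control males, 11-fold lower (adjusted p = 5.07e-09). Probeset 1626821_s_at, assigned to 4 such genes, was 7.37-fold lower, and 1639571_s_at, assigned to 2, was 4.58-fold lower. The last such probeset, 1629827_s_at, was at background in both groups. On these probesets the males with both transgenes (5.75 and 5.74 on the first) were near the act-Gal4 control. The constitutive chaperones did not share the fall: of 22 genes, 2 were called higher and 2 lower (9.09% each, against 13.3% and 9.85% of all genes). Among them CCT6, a subunit of the cytosolic chaperonin, rose by 0.51 and Hsp60D fell by 0.83; with arrays left out one at a time, 1, 1, 2 and 1 were called higher and 0, 0, 1 and 0 lower.

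Glutathione S-transferase genes were called in 1 direction only, while cytochrome P450 genes were called in both. Glutathione S-transferases couple glutathione to reactive or foreign compounds, and of 34 measured genes 18 were called higher (52.9%, against 13.3% of all genes) and 0 lower, with a median change of 0.38. GstE7 was at 6.32 and 6.41 in act-Gal4 control males, against 4.38 and 4.80 in P control males, a 3.43-fold rise (adjusted p = 2.24e-06). GstD3 rose 2.81-fold, GstE1 2.61-fold and GstD2 1.99-fold. Of 80 cytochrome P450 genes, 17 were called higher and 8 lower (21.2% and 10%, against 13.3% and 9.85% of all genes). The share called lower was thus near that of all genes. Their median change was −0.01, and 6, 6, 6 and 5 were called lower with arrays left out. Beside Cyp4e3, the largest rises were those of Cyp309a1 (2.66-fold) and of Cyp6g1 (2.21-fold), a gene known for insecticide resistance. Of 35 UDP-glycosyltransferase genes, 4 were called higher and 0 lower, led by Ugt37A3 (2.12-fold); at 11.4% that is near the share of all genes, and the count was 2, 2, 3 and 3 with arrays left out.

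Sugar digestion genes were mostly called higher, and gut protease genes were called in both directions. Of 19 sugar digestion genes, 10 were called higher and 1 lower (52.6% and 5.26%, against 13.3% and 9.85% of all genes), and the median change was 0.53. The maltase gene Mal-A4 was at 5.13 and 5.02 in act-Gal4 control males and 3.56 and 3.77 in P control males, 2.65-fold higher (adjusted p = 0.000158), and the amylase-related gene Amyrel rose 2.65-fold too. Mal-A1, whose P control arrays were at background, was at least 2.35-fold higher. Of 28 gut serine protease genes, 8 were called higher and 4 lower (28.6% and 14.3%). The 4 largest changes were all rises of Jonah genes, which encode chymotrypsin-like proteases of the midgut: Jon44E rose 3.30-fold, Jon25Bi 3.22-fold, Jon99Fi 2.67-fold and Jon99Ci 2.06-fold. For Jon44E the levels were 9.43 and 9.40 in act-Gal4 control males, against 7.74 and 7.64 in P control males. Of the 2 midgut markers measured neither was called, and their summed level was 12.37 and 12.41 in act-Gal4 control males and 12.26 and 12.31 in P control males. As these are whole larvae, fewer cells of a type and less RNA per cell cannot be told apart.

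The fat body is the larva's storage and secretory organ. Of 19 genes of its secreted proteins, measured in whole larvae, 9 were called higher and 1 lower. These are 47.4% and 5.26%, against 13.3% and 9.85% of all genes, and the median change was 0.25. Fbp2 was at 12.46 and 12.44 in act-Gal4 control males and at 11.83 and 11.87 in P control males, a 1.51-fold rise. The iron carrier gene Tsf1 rose 1.80-fold, while a second, dimmer probeset of Tsf1 differed by 0.24 (adjusted p = 0.277). Idgf1, a chitinase-like growth factor gene, fell by 0.55. Of 24 genes of lipid storage and transport, 7 were called higher and 4 lower (29.2% and 16.7%). The perilipin gene Lsd-1, which coats lipid droplets, was at 8.55 and 8.59 in act-Gal4 control males and 7.0 and 7.05 in P control males, 2.92-fold higher (adjusted p = 3.63e-07). The fatty acid synthase gene FASN1 rose 2.25-fold and the acetyl-CoA synthetase gene AcCoAS 1.79-fold. In the other direction, the largest called fall among the lipid genes was 0.81 on the log2 scale, or 1.76-fold. When single arrays were left out, 5, 4, 5 and 7 lipid genes were called higher and 2, 2, 2 and 3 lower. The summed level of 3 fat body markers was 14.43 and 14.44 in act-Gal4 control males and 14.11 and 14.13 in P control males.

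Both measured prophenoloxidase markers rose, while neither of the measured plasmatocyte markers was called. Prophenoloxidases are made by crystal cells, a blood cell type, and oxidize phenols to melanin at wounds. PPO1 was at 6.67 and 6.78 in act-Gal4 control males, against 3.83 and 3.56 in P control males, a rise of 3.03 ± 0.111 (8.18-fold, adjusted p = 1.51e-08). PPO2 was at 8.81 and 8.82 in act-Gal4 control males, against 6.27 and 6.34 in P control males, 5.69-fold higher (adjusted p = 6.88e-09). The plasmatocyte markers Hml (6.15 and 6.0 in act-Gal4 control males, 6.0 and 5.87 in P control males) and NimC1 (3.96 and 4.08 in act-Gal4 control males, 4.10 and 3.79 in P control males) did not pass the test. The summed level of these 4 hemocyte markers was 9.32 and 9.33 in act-Gal4 control males and 7.43 and 7.37 in P control males. The whole list of 27 hemocyte and melanization genes had a median of 0.21. Of these genes 8 were called higher and 0 lower (29.6% and 0%, against 13.3% and 9.85% of all genes). They included fon (2.69-fold), a protein of the hemolymph clot, and vkg (1.56-fold), a type IV collagen of basement membranes. In males with both transgenes PPO1 was at 5.23 and 5.16, between the controls.

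Immune effectors went both ways. Of 21 antimicrobial peptide genes, 9 were called higher and 2 lower (42.9% and 9.52%, against 13.3% and 9.85% of all genes). Their median change was 0.09. The attacin gene AttD was at 4.18 and 4.21 in act-Gal4 control males and 3.41 and 3.04 in P control males, 1.96-fold higher (adjusted p = 0.000428). The Bomanin gene BomS2 rose 1.85-fold and the antifungal gene Drs 1.78-fold, while Drsl2, of the same family as Drs, fell as given above. In the fits with arrays left out, 5, 5, 5 and 6 were called higher and 1, 1, 2 and 1 lower. Of 12 genes of lysozymes and peptidoglycan recognition proteins, 5 were called higher and 2 lower (41.7% and 16.7%). The lysozyme gene LysS was at 9.75 and 9.66 in act-Gal4 control males and 8.12 and 8.05 in P control males, 3.08-fold higher. PGRP-SC2, an enzyme that degrades peptidoglycan, rose 1.81-fold, and PGRP-LB and PGRP-LF, both dampers of the Imd pathway, fell 1.75-fold and 1.65-fold. Of these 12 genes, 4, 3, 4 and 3 were called higher with arrays left out.

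Cuticle genes rose in a subset of the family. The Cpr genes encode cuticle proteins that bind chitin. Of 66 measured genes 18 were called higher and 1 lower (27.3% and 1.52%), while 25 were at background in both groups. The median change of the 66 genes was 0.07. Cpr47Eg was at 6.51 and 6.55 in act-Gal4 control males, against 4.09 and 3.89 in P control males, a 5.82-fold rise (adjusted p = 1.51e-08). Cpr65Aw rose 4.09-fold, Cpr65Au 3.90-fold and Cpr78Cc 3.76-fold, and 10 Cpr genes in all were called at 2-fold higher. Probeset 1631558_at, assigned to 2 genes of this family, was 14.8-fold higher, with 7.52 and 7.55 in act-Gal4 control males and 3.52 and 3.78 in P control males. Of 55 other cuticle protein genes 7 were called higher and 1 lower (12.7% and 1.82%, against 13.3% and 9.85% of all genes). They were led by the larval cuticle genes Lcp9 (4.38-fold) and Lcp65Ag3 (3.70-fold); Lcp9 was at 11.20 and 11.26 in act-Gal4 control males and at 9.15 and 9.05 in P control males. The 1 lower call was lost whenever any of the 4 arrays was left out.

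Chitin itself is synthesized, bound and remodelled by a further set of genes, with a median change of 0.31. Of these, 13 of 29 were called higher and 4 lower (44.8% and 13.8%, against 13.3% and 9.85% of all genes). The chitin-binding protein gene obst-A was at 9.34 and 9.49 in act-Gal4 control males and 7.82 and 8.24 in P control males, 2.62-fold higher (adjusted p = 2.39e-05). The chitin deacetylase genes Cda4 and verm rose 2.42-fold and 1.79-fold, and obst-E 1.80-fold. With arrays left out, 10, 8, 11 and 9 were called higher and 1, 2, 2 and 1 lower. Of 19 tanning and pigmentation genes, 4 were called higher and 0 lower, none by 2-fold; with arrays left out, 3, 1, 1 and 2 were called higher and 0, 0, 1 and 0 lower. For tanning and pigmentation the share called higher was 21.1%. The ecdysone response genes, which time the molts, were called 6 higher and 4 lower of 30 (20% and 13.3%). MsrA, a methionine sulfoxide reductase gene induced by ecdysone, rose 2.61-fold, and the nuclear receptor gene ftz-f1 fell 2.04-fold; 1, 4, 3 and 2 were called lower with arrays left out. Salivary glue genes and the 71E cluster were called 5 higher and 5 lower of 24 (with arrays left out, 2, 2, 4 and 3 higher and 3, 3, 3 and 4 lower). Both shares of the glue and 71E list were 20.8%. Of 6 salivary gland markers 5 were called higher, and their summed level was 15.41 and 15.42 in act-Gal4 control males and 15.02 and 15.01 in P control males.

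**Figure D3:**
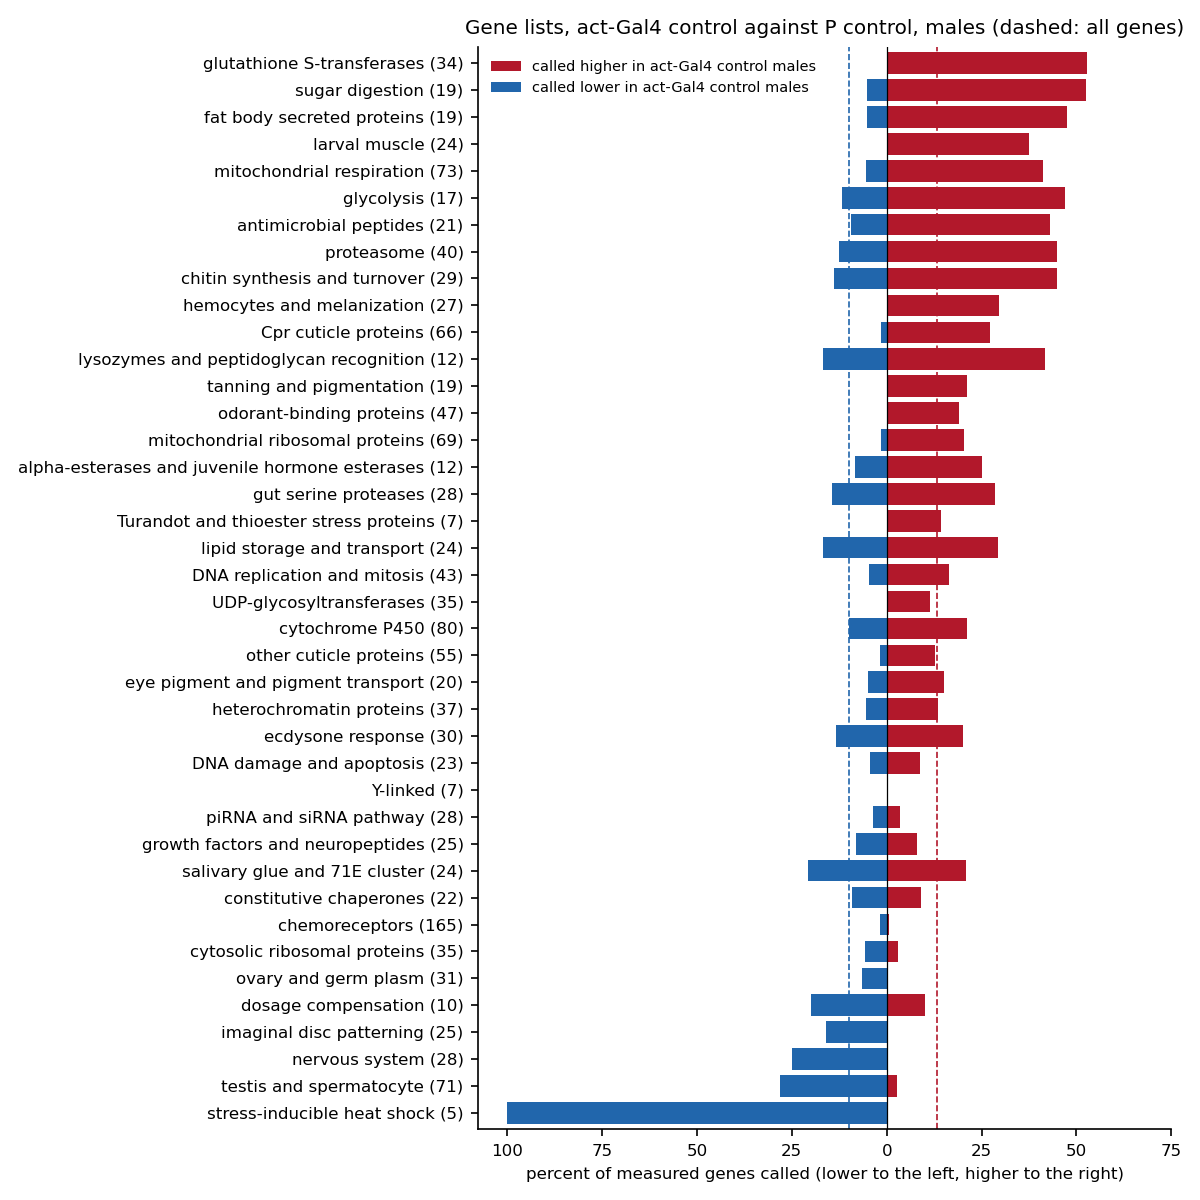
Percent of measured genes called in each of 40 gene lists (y axis, number measured in brackets): bars to the right are genes called higher in act-Gal4 control males than in P control males, bars to the left genes called lower. Dashed lines are the shares over all genes, 13.3% higher and 9.85% lower; glutathione S-transferases reach 52.9% higher and the 5 heat shock genes 100% lower.

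Genes of energy supply were more often called higher. Subunits of the mitochondrial respiratory chain and ATP synthase were called higher for 30 of 73 genes and lower for 4. These are 41.1% and 5.48%, against 13.3% and 9.85% of all genes, and the median change was 0.20. The complex I gene ND-18 was at 7.22 and 7.26 in act-Gal4 control males and 6.62 and 6.07 in P control males, a rise of 0.89 (1.86-fold, adjusted p = 0.00116). ND-MLRQ of complex I rose 1.68-fold, COX7C of cytochrome c oxidase 1.65-fold and ATPsynO of ATP synthase 1.62-fold. A second, dimmer COX7C probeset differed by −0.28 (adjusted p = 0.379), and the mean of the COX7C probesets by 0.22 (adjusted p = 0.208). The 4 falls were ATPsynCF6L (−0.56), ND-51L2 (−0.53), COX5BL (−0.37) and COX4L (−0.36), each named as a paralog of a standard subunit. Leaving out single arrays, 21, 19, 26 and 17 were called higher and 2, 1, 3 and 2 lower. Mitochondrial ribosomal protein genes were called higher for 14 of 69 and lower for 1 (20.3% and 1.45%), led by mRpL17 (1.63-fold). With arrays left out, 5, 4, 8 and 4 of these were called higher and 0, 1, 1 and 0 lower.

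Of 17 genes of glycolysis and its branches, 8 were called higher and 2 lower (47.1% and 11.8%, against 13.3% and 9.85% of all genes). The aldolase gene Ald1 was at 10.12 and 9.99 in act-Gal4 control males and at 9.06 and 9.19 in P control males, 1.91-fold higher (adjusted p = 0.000192). Gpdh1, for glycerol-3-phosphate dehydrogenase, rose 1.86-fold and Pgk, for phosphoglycerate kinase, 1.68-fold. Pdk, whose kinase holds back pyruvate dehydrogenase, fell 1.74-fold. Larval muscle genes were called higher for 9 of 24 (37.5%) and lower for 0, with a median of 0.16. Prm, the paramyosin gene, was at 11.01 and 11.06 in act-Gal4 control males and 9.85 and 9.75 in P control males, 2.36-fold higher (adjusted p = 2.04e-06), although a second probeset of Prm differed by only 0.27 (adjusted p = 0.0667). The muscle LIM protein gene Mlp60A rose 1.90-fold and the troponin T gene up 1.71-fold.

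Proteasome genes split by paralog. Of 40 genes, 18 were called higher and 5 lower (45% and 12.5%, against 13.3% and 9.85% of all genes). Their median change was 0.23. The lid subunit gene Rpn12 was at 8.71 and 8.74 in act-Gal4 control males and 7.85 and 7.90 in P control males, a 1.81-fold rise (adjusted p = 4.06e-05). The base ATPase genes Rpt2 and Rpt3 rose 1.69-fold and 1.63-fold, and the core gene Prosalpha6 1.62-fold. The 5 falls were Prosbeta5R1 (−0.60), Rpn13R (−0.53), Prosalpha6T (−0.48), Prosbeta4R1 (−0.47) and Rpt3R (−0.32), all paralogs of standard subunits, a type known for expression in the testis. With arrays left out, 11, 11, 15 and 12 were called higher and 1, 2, 2 and 3 lower. Cytosolic ribosomal protein genes were called higher for 1 of 35 and lower for 2, under the share of all genes, and these 3 calls were lost on leaving out any of the 4 arrays.

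Transcripts of the male germ line were called lower more often than genes in general. Of 71 testis and spermatocyte genes 20 were called lower and 2 higher (28.2% and 2.82%, against 9.85% and 13.3% of all genes), with a median of −0.25. Mst27D was at 5.26 and 5.14 in act-Gal4 control males and 6.01 and 6.05 in P control males, 1.78-fold lower (adjusted p = 0.000579). Mst84Da fell 1.70-fold, close to the threshold of the test (−0.77 ± 0.238 on the log2 scale, adjusted p = 0.0445), and djl fell 1.59-fold. One of the rises, dj-1beta (2.25-fold), entered the list by its name only and is the Parkinson gene DJ-1's homolog, not a sperm gene. The number called lower depended on single arrays, at 6, 8, 8 and 14 with arrays left out, and the number called higher was 1, 2, 3 and 1. The summed level of 6 male germ line markers was 11.68 and 11.70 in act-Gal4 control males and 12.14 and 12.24 in P control males, with 2 of the 6 called lower. The 7 Y-linked genes were at background on all 4 arrays.

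Genes of the nervous system and of imaginal disc patterning were called lower or not at all. The shares called lower were 25% and 16%, against 9.85% of all genes. Of 28 nervous system genes 7 were called lower and 0 higher, with a median of −0.12; among them were elav, the neuronal RNA-binding protein gene (7.51 and 7.63 in act-Gal4 control males, 8.23 and 8.22 in P control males, 1.58-fold lower, adjusted p = 0.000514), the GABA receptor gene Rdl (1.75-fold lower) and the calcium channel gene cac (1.69-fold lower). With arrays left out, 4, 3, 4 and 5 were called lower. Of 25 patterning genes 4 were called lower and 0 higher: Antp (1.66-fold), bi (1.49-fold), salm (1.42-fold) and tsh (1.32-fold) (4, 2, 4 and 3 with arrays left out). Among neuropeptide and growth factor genes, Nplp4 rose 2.62-fold and Dh44 fell as given above. Of 165 chemoreceptor genes, 151 were at background in both groups. The share of odorant-binding protein genes called higher was 19.1%, against 13.3% of all genes. Of 47 odorant-binding protein genes 9 were called higher and 0 lower, led by Obp83g (3.26-fold, 6.45 and 6.50 in act-Gal4 control males against 5.04 and 4.51 in P control males); 5, 5, 7 and 5 were called with arrays left out. The JNK phosphatase gene puc fell 1.91-fold.

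The same 2 genotypes were also measured in females, on 4 other arrays. Of 3455 probesets called in males, 1434 were called in females too, 41.5% of the male calls and 46.1% of the 3110 female calls (16.6% of all probesets were called in females). Of these 1434, 1299 changed in the same direction in both sexes and 135 in opposite directions. The sign was the same in females for 77.1% of male calls, against 60% of all probesets. Of the 304 probesets called at 2-fold or more in males (1.62% of all), 245 were called in females in the same direction and 3 in the opposite one. The difference between sexes, described next, was called for 178 of the 304 (58.6%, against 8.13% of all probesets). In 151 of them the larger change was in males. Choosing probesets by their male change, which is part of that difference, raises such shares, also among all male calls below. Across probesets, which share their arrays and are not independent replicates, the 2 changes correlated with r = 0.51.

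The difference between the sexes was tested itself, by the interaction term, and passed for 1526 probesets (8.13%). Of the 3455 male calls, 949 (27.5%) were among them; the count of 1526 was 844, 853, 1148 and 921 with the male arrays left out in the order above. lncRNA:CR9284 rose in males, with 7.47 and 7.42 in act-Gal4 control males and 5.05 and 4.89 in P control males, and was at background in females, so that no female change was measured; the fitted difference was 2.78 ± 0.190 (adjusted p = 1.39e-05). Acbp3 rose by 2.02 in males and changed by 0.28 in females, a difference of 1.74 (adjusted p = 8.77e-05). The widest difference over genes called in both sexes in opposite directions, singled out after its values were seen, was that of CG7924. It was at 8.96 and 8.90 in act-Gal4 control males and 9.83 and 9.81 in P control males, and at 9.75 and 9.67 in act-Gal4 control females and 4.02 and 4.35 in P control females. The male change was −0.89, the female change 5.53 and the difference −6.41 (adjusted p = 1.88e-09), so that P control females stood apart from the other 3 control groups.

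**Figure D4:**
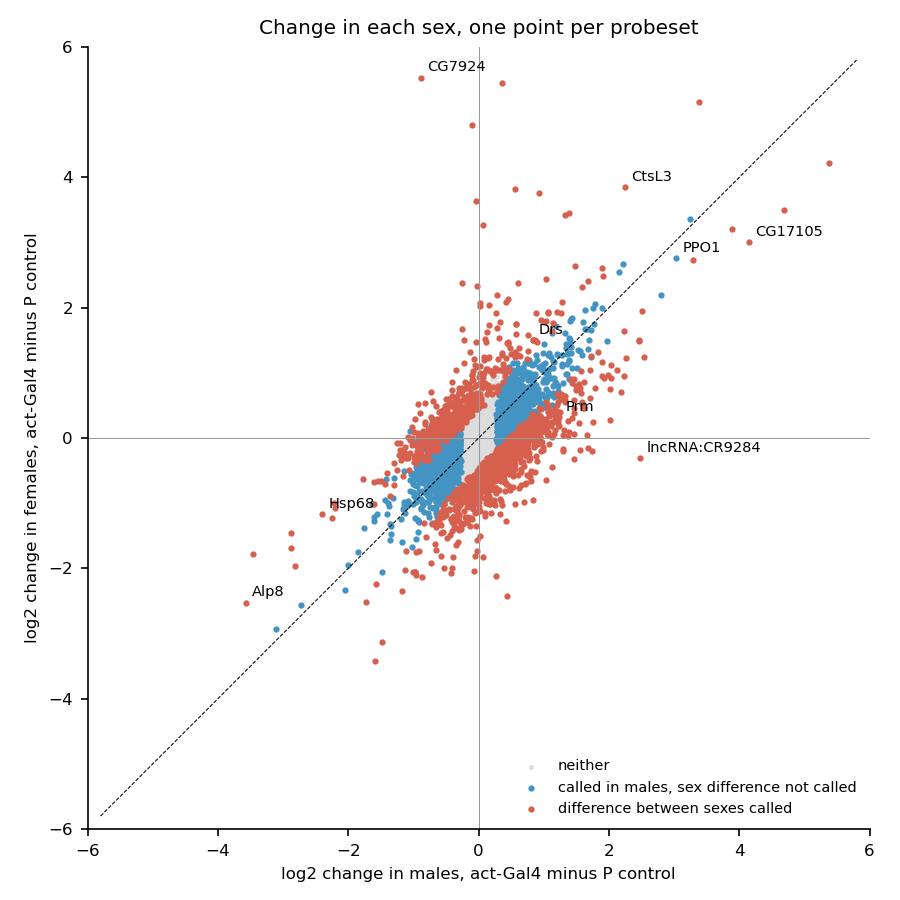
Change of act-Gal4 control minus P control in males (x axis, log2) against the same change in females (y axis, log2), 1 point per probeset; red points are the 1526 with the difference between sexes called, blue points other male calls, grey points the rest, and the dashed line marks equal change. Most large male changes have the same sign in females, and CG7924 lies far off the line.

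Several gene groups differed between the sexes. Of the 73 respiratory genes, 30 were called higher and 4 lower in males, and 0 were called higher and 20 lower in females (against 9.95% and 10% of all genes), with medians of 0.20 and −0.22. The difference between sexes was called for 35 of the 73, against 10.3% of all genes. ATPsynO rose by 0.69 in males and changed by −0.23 in females, a difference of 0.92 (adjusted p = 0.00258). For glycolysis the difference was called for 7 of 17 genes, Gpdh1 with 0.90 in males and 0.02 in females, although another Gpdh1 probeset gave 0.36 in males and 0.48 in females (difference −0.12, adjusted p = 0.676). The difference was called for muscle for 7 of 24 genes. Prm rose by 1.24 in males and by 0.32 in females, where its levels were 10.69 and 10.70 in act-Gal4 control females and 10.38 and 10.37 in P control females. The second Prm probeset gave 0.27 in males and 0.11 in females (difference 0.16, adjusted p = 0.538). The gap between 3′ and 5′ GAPDH control probesets was 3.09 in act-Gal4 control females and 3.64 in P control females, and that of eIF-4a was 4.22 and 3.95 in the same groups, so that the eIF-4a measure ran the other way from males. For actin the gap was 3.61 in act-Gal4 control females and 2.96 in P control females.

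The heat shock genes differed too: all 5 had the difference between sexes called, and 3 were called lower there. Hsp68 fell by 2.40 in males and by 1.17 in females. Glutathione S-transferases were called higher for 13 of 34 in females and lower for 1, and sugar digestion genes for 11 of 19 and 3, with medians of 0.20 and 0.63. Of the 71 testis genes 3 were called higher and 4 lower in females, against 9.95% and 10% of all genes. Their median change in females was −0.02. The median level of the list was near background in females, at 3.08 and 3.19 in act-Gal4 controls and 3.28 and 3.18 in P controls. PPO1 rose by 2.76 in females, PPO2 by 1.95 and NimC1, not called in males, by 0.94; for PPO1 the difference between sexes of 0.27 did not pass (adjusted p = 0.354, 95% interval −0.07 to 0.62).

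**Figure D5:**
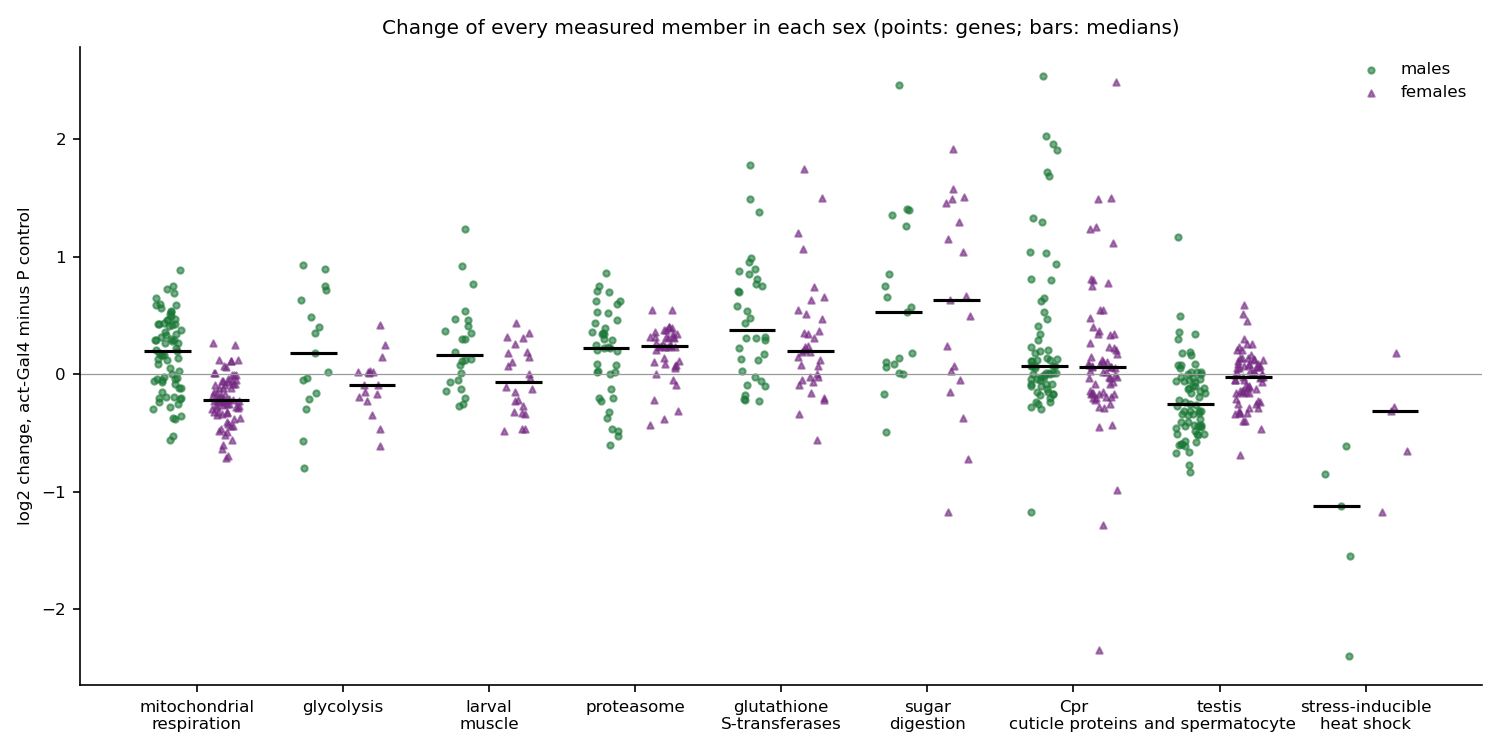
Log2 change, act-Gal4 minus P control, of every measured member of 9 gene lists (x axis) in males (green circles) and females (purple triangles); black bars are medians. The median of mitochondrial respiration is 0.20 in males and −0.22 in females, and all 5 heat shock genes are below 0 in males.

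For the largest male changes, the males with both transgenes did not sit on 1 side. CG17105 was at 9.0 and 9.07 in them, between act-Gal4 control males and P control males. Cyp4e3, at 8.0 and 7.87, CG11313, at 10.17 and 10.12, and acs, at 9.88 and 9.79, were above both controls. Lcp9, at 6.70 and 6.71, and Acbp3, at 5.89 and 6.09, were below both. Hsp68, at 7.07 and 6.98, was below the act-Gal4 control males. These levels are given side by side only, since a comparison of either control with the larvae carrying both would share its arrays with the one above.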

How the data were processed

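RNA of whole larvae of the third instar was measured on 11 Affymetrix Drosophila 2.0 arrays in 6 groups of genotype and sex. The deposited table holds intensity values on a linear scale, made with RMA, per the submitters' processing notes; its version and options are not given in the sources used here. Groups came from the array titles and genotypes, because the strain label contradicts them.

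The log2 of each deposited intensity was taken, with no further normalization. Leaving out 183 Affymetrix control probesets, 18769 probesets were fitted with limma 3.58.1 (R 4.3.3) as 6 group means over all 11 arrays (5 residual and 6.29 prior degrees of freedom). Contrasts were act-Gal4 control minus P control in males, the same in females, and their difference. Calls required a Benjamini-Hochberg adjusted p under 0.05 over all probesets; adjusted p-values in the text are of this kind and two-sided. The fit was tested on simulated data. Tables and plots were made with Python 3.11.15, pandas 2.3.3, numpy 2.4.6 and matplotlib 3.10.9.

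The platform annotation gives 1 gene for 13647 probesets, several for 402 and none for 4720; of several probesets of a gene the one with the highest mean on the 11 arrays stood for it, and the gene w has none of its own. The RefSeq Release 6 gene table was used for names, chromosome arms and the order of neighbours. The 40 gene lists, 5 to 165 measured genes long, and the tests were chosen with earlier results of these data known, and lists are described by counts and medians without a test. Genes were named by a rule: the 15 largest rises and 15 largest falls among named genes whose arrays did not overlap, the 3 largest of each among genes with CG numbers, up to 4 called members per list with the largest change (2 where none was called), every stress-inducible heat shock gene, and the HP1 gene. Not every gene that the rule picks is described above. Genes named beyond the rule are marked as such or are members of counts of 5 or fewer. A level at or under 3.27, the highest of Y-linked probesets on female arrays, was taken as background, and a fold against a group at background is a lower bound. Alternatives were other variance priors, array weights, subsets of arrays, 2 further normalizations, a filter on dim probesets, other thresholds, the mean over a gene's probesets, and leaving out each of the 4 arrays.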

Additional observations from a re-analysis of the deposited data

Results flagged for a closer look

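Of 151 genes and probesets named in the text, 77 passed the interaction test between males and females (adjusted p under 0.05 over all probesets). Over all probesets 8.13% passed, and over all genes 10.3%. Many of the 151 were named for the size of their male change, and some for the difference itself. A higher share among them follows from that choice. The differences below are the male change minus the female change on the log2 scale, each change being act-Gal4 control minus P control, so that a value above 0 means a change more towards act-Gal4 in males. Causes of the difference between sexes were not tested. The 3′ to 5′ gap of the control probesets, given above, ran in opposite directions in the sexes for eIF-4a and in the same direction for GAPDH. For actin it was 4.09 in act-Gal4 control males and 4.04 in P control males. In females the actin gap was 3.61 in the act-Gal4 control and 2.96 in the P control. Both female groups were at background for Clk, Mst27D and lncRNA:CR9284, and P control females for Rpt3R, so that the female change was not measured in the first 3 and is not exact in Rpt3R. For Clk the act-Gal4 control males were at background too, so that its male change is not exact either. Another probeset above background was measured for 7 of the genes, and in 3 of them (Gpdh1, mthl4 and obst-E) at least 1 such probeset had the difference called in the same direction. In the others (Ald1, COX7C, Mlp60A and Prm) it did not pass the test.

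Among energy genes the difference was 1.25 for ND-18, 0.63 for ND-MLRQ, 0.82 for COX7C, 0.92 for ATPsynO, 0.55 for mRpL17 and 1.57 for Mpcp1. In glycolysis it was 0.79 for Ald1, 0.88 for Gpdh1 and 0.74 for Pgk. Muscle genes had 0.92 for Prm, 0.66 for Mlp60A and 1.11 for up. The 6 genes of lipid, sugar and one-carbon metabolism with a difference had 0.66 (Acbp2), 1.74 (Acbp3), 0.72 (Lsd-1), 1.11 (Gnmt), 0.98 (LManIII) and 1.48 (ninaD). Among cuticle genes it was 1.30 for Cpr47Eg, 0.91 for Cpr65Aw, −0.58 for Cpr78Cc, 1.09 for Lcp9, 0.63 for obst-E and 0.68 for the cuticle probeset 1631558_at.

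The heat shock genes all had a negative difference. Hsp26 and Hsp27 were not called in females, where their changes were −0.28 and 0.18, and the others fell less there than in males. The difference was −1.23 for Hsp68, −0.90 for stv, −0.81 for DnaJ-1, −0.57 for Hsp26 and −0.79 for Hsp27, and the Hsp70 family probesets 1632841_x_at, 1626821_s_at and 1639571_s_at had −1.68, −1.43 and −1.12. The heat-induced lncRNA:alphagamma-element:CR32865 had −0.85, whereas the chaperonin gene CCT6 had 0.50. Immune and blood cell genes had −0.68 (Drs), −1.15 (Drsl2), −0.86 (NimC1), 0.56 (PPO2) and 1.16 (LysS).

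Gut protease genes differed by 0.47 (Jon44E), 0.49 (Jon99Ci) and 0.52 (Jon99Fi), the detoxification genes Cyp4e3 and GstD3 by 0.56 and 0.76, and CtsL3 by −1.60. Of the paralogs, Prosalpha6T had −0.79 and Rpt3R −0.64, while the standard subunit gene Rpt3 had 0.59, and in the testis list Mst27D had −0.83 and dj-1beta 0.72. The patterning genes salm and tsh had −0.67 and −0.46, the chromatin gene Caf1-55 had 0.46, and the clock genes Clk and Cipc had −0.90 and −0.58. Nplp4 and Obp83g had 1.29 and 1.09.

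Alp8 had −1.05, NT5E-2 −0.92, CAHbeta −1.01, Bbd −0.90, Culd −0.88 and mthl4 −0.58. On 2L the neighbours CG17105, CG17107, CG7296 and CG7299 had 1.15, 1.03, 1.0 and 0.85. Further values were 2.78 for lncRNA:CR9284, 0.97 for acs, 0.78 for CG14120, 1.82 for CG14205, 1.80 for CG15308, 1.47 for SelG and −6.41 for CG7924. Of the probesets with no gene assigned, 1630934_at had 1.19, 1634353_at had 1.17 and 1635549_at had −1.76.

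Outside the tested measurement, the control probeset AFFX-Dm-K01486-1_at was higher by at least 5.67 in act-Gal4 control males than in P control males, whose arrays were at background. It drew attention because it lies outside the probesets tested and is above the level of its controls, the P control males.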

How the results depend on the processing

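No paired analysis was possible because the labels give no replicate numbers that the groups share. Of 3455 probesets and 2768 genes called, 304 and 227 were left when the log2 change also had to reach 1, and 1901 to 2464 probesets and 1531 to 1960 genes with 1 of the 4 arrays left out. Under a trended or robust prior, array weights, the 6 male arrays, the 4 arrays alone, quantile normalization, a median shift, brighter probesets or an adjusted p under 0.1, the counts lay within 1.5 times. For the difference between sexes, 1526 calls became 2322 with a trended prior, 2299 at an adjusted p under 0.1 and 844 to 1148 with 1 array left out. The HP1 gene (0.32, adjusted p = 0.0674) passed at 0.32 with a trended prior (adjusted p = 0.00494), array weights (0.0488), the 4 arrays alone (0.0336) and brighter probesets (0.0335), and was 0.30 to 0.34 with 1 array left out. The naming rule picks 170 called genes, not all of them described above. Of these, 44 lost the call under at least 1 alternative, 41 of them with 1 array left out. None of the 39 named for size or as heat shock genes did. Most of these were picked as large, called changes without overlap on the same arrays, which favours keeping the call. The value of ORY, a Y-linked gene at background, was −0.14, and −0.35 to 0.07 with 1 array left out, above 0 without P control replicate 2. Of 518 list medians recomputed, 67 moved by more than the spread between replicates, and 14, from 9 lists, changed sign, none over 0.06 in size as reported. Calls were higher in act-Gal4 control males in 54.6% as deposited, 49.7% after quantile normalization and 53.4% after the median shift. In these results the cause was not tested. With 2 arrays a group, changes smaller than the replicate spread were not detectable, and probesets at background give no level.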

Other observations

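Several genes of the circadian clock were lower in act-Gal4 control males. They were put together after their values were seen. The clock is a feedback loop in which Clk and cyc form an activator of transcription. Clk was at 3.18 and 3.18 in act-Gal4 control males, at background, against 4.17 and 4.57 in P control males, at least 2.14-fold lower (adjusted p = 0.000458 in limma). Cipc, whose protein inhibits Clk, was at 3.52 and 3.64 in act-Gal4 control males and 4.76 and 4.71 in P control males, a fall of 1.16. Pdp1, an activator of Clk, fell by 0.66 and cwo, a repressor of clock targets, by 0.46. In the other direction cyc rose by 0.37, with 5.38 and 5.26 in act-Gal4 control males and 5.0 and 4.90 in P control males. The 4 other clock genes looked at did not pass the test, with changes of −0.25 for vri, −0.12 for per, −0.23 for tim and −0.06 for cry. In females Pdp1 fell by 1.07 and Cipc by 0.58, cyc rose by 0.50, and Clk was at background in both groups. The time of day at collection is not given in the labels.

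In 107 genes the changes of the sexes were called in opposite directions, with the difference called too. After CG7924, the widest difference was that of CG15308 on the X. It was at 12.17 and 12.22 in act-Gal4 control males and 11.32 and 11.39 in P control males, and at 10.88 and 10.85 in act-Gal4 control females and 11.81 and 11.82 in P control females. Among genes with a name, Mpcp1, for a mitochondrial phosphate carrier, rose by 1.13 in males and fell by 0.44 in females, and the selenoprotein gene SelG rose by 0.81 in males and fell by 0.66 in females. These were picked by their size after the values were seen.

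Of 1094 genes with several probesets, 375 had at least 1 called in males and 96 at least 2. Several probesets give a gene more chances of a call, and 18.4% of all probesets tested were called. In 17 of those 96 the called probesets differed in direction, so that the sign of a single probeset need not hold for every transcript of its gene.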
